A study of Mus musculus with 8 samples.

Results

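The Polycomb repressive complex genes described here are 10 genes taken from the deposited allelic counts by their symbols, out of 22810 genes in all. They are Ezh2, Ezh1, Eed and Suz12 of the PRC2 core, Jarid2 and Mtf2 as PRC2 accessory factors, Rnf2, Ring1 and Pcgf6 of PRC1, and Kdm6b, an H3K27 demethylase. Single blastocysts were collected on embryonic day 3.5 after natural mating, without in vitro culture, and a SMART-Seq2 library was made from each embryo. The forward cross had a B6 (C57BL/6) mother and a cast (Mus musculus castaneus) father and gave 3 embryos, numbered 1, 2 and 3. The reverse cross had a cast mother and a B6 father and gave 5 embryos, numbered 1, 2, 3, 5 and 7. The labels give no mutation or treatment, so that every embryo held 1 B6 and 1 cast set of autosomes, and the crosses differed in which parent gave which set. The maternal allele was therefore B6 in forward embryos and cast in reverse embryos.

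Polycomb group proteins keep developmental genes silent through histone marks. PRC2 methylates lysine 27 of histone H3 through its catalytic subunit EZH2 or EZH1, which needs EED and SUZ12, while JARID2 and MTF2 help to bring the complex to CpG-rich DNA. PRC1 adds ubiquitin to histone H2A through RNF2 or RING1, paired with a PCGF protein, and KDM6B and KDM6A remove methyl groups from H3K27. In the early mouse embryo, H3K27 methylation inherited from the oocyte also silences the maternal allele of a group of genes.

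The values are SNP-spanning reads, which cover a base that differs between the strains, and they summed to between 1060063 and 1632695 per embryo. B6 alleles held 57.4 to 58.3% of these reads. The median paternal share over 5608 autosomal genes with at least 20 reads in every embryo was accordingly 44.5% ± 0.194 (SD, n = 3) for the forward cross and 55.7% ± 0.638 (SD, n = 5) for the reverse cross. Since the number of SNPs differs between genes, levels, as reads scaled to a common library size (RPM), are compared here between embryos and not between genes. Values of single embryos are listed in the order of the embryo numbers above. Markers of trophectoderm, epiblast and primitive endoderm were read in all 8 embryos. Forward embryo 1 held 1162 reads of 9 leukocyte and macrophage genes, 1055 of them from Lyz2, against 4 to 44 in the others. Reverse embryo 1 held 843 RPM of 8 trophectoderm genes, against 3986 to 5208 in forward embryos and up to 4724 in reverse embryos. Maternal reads made up 4.48% of the reads of 9 paternally expressed genes in forward embryo 1 and at most 2.61% in the other embryos. The p-values for alleles below measure the spread between allele libraries, the maternal and the paternal reads of each embryo. These are taken as separate unless a term for each embryo is named. P-values for crosses measure the spread between single embryos, and the binomial intervals cover counting error only.

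Polycomb genes were read from both parental alleles. Of the 10 genes, 9 had at least 10 reads in an allele library and were tested, while Ring1 had at most 9. In the comparison of paternal with maternal alleles over both crosses, 0 of these 9 genes passed an adjusted p of 0.1 (edgeR quasi-likelihood test with strain as a term), and 1.42% of 12565 autosomal genes did. At an unadjusted p under 0.05 the count was also 0 of 9 by edgeR and by DESeq2, against 7.32% and 7.0% of all genes. A second test asked whether the parental difference was smaller than a log2 fold change of 1 in either direction, and 7 of 9 genes passed it (adjusted p of 0.1, a pair of one-sided edgeR quasi-likelihood tests), beside 35.6% of all tested genes. These 7 genes were Ezh2, Eed, Jarid2, Mtf2, Rnf2, Pcgf6 and Kdm6b. Among genes with at least 10 reads in every embryo the count was again 7 of 9, beside 78.1% of all genes. Without forward embryo 1, 2 or 3 it fell to 4 of 9, as Jarid2, Rnf2 and Kdm6b no longer passed, and the share of all genes fell to 17.1, 14.7 and 12.9%. Without reverse embryo 1 it was 8 of 9, when Suz12 also passed, beside 47.4% of all genes. The median parental log2 fold change of the 9 genes was 0.02, against -0.0075 over all tested genes.

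**Figure D1:**
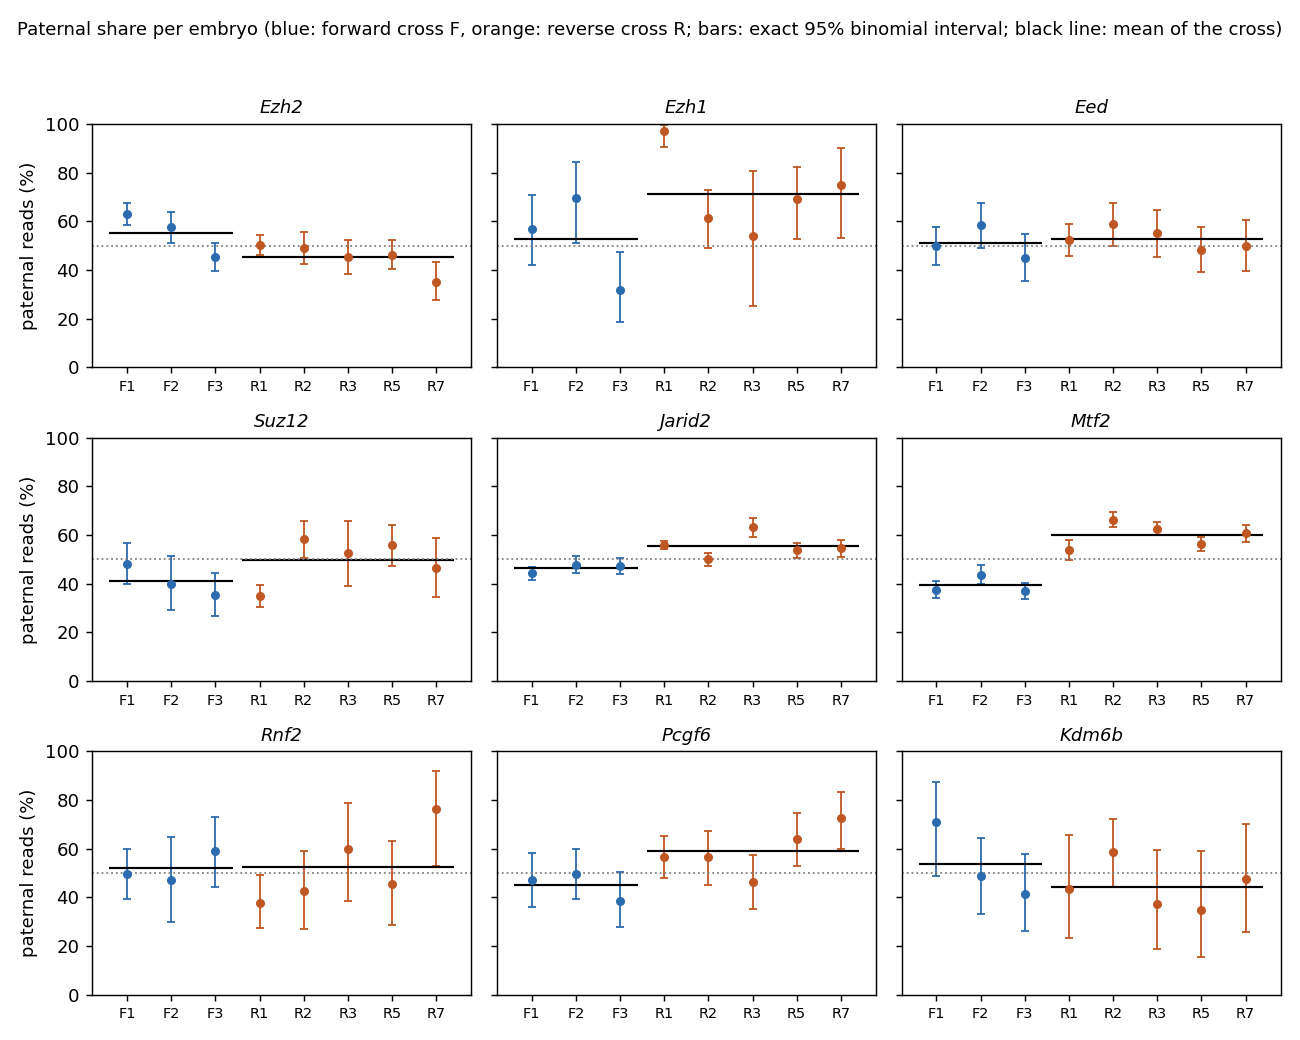
Paternal share of SNP-spanning reads (%) in each of the 8 embryos for the 9 tested Polycomb genes, with the exact 95% binomial interval as a bar, the mean of each cross as a black line and 50% as a dotted line. Mtf2 lies below 50% in the 3 forward and above 50% in the 5 reverse embryos, the crosses overlap for Ezh2, and Ezh1 reaches 97.2% in reverse embryo 1.

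Ezh2 encodes the main H3K27 methyltransferase of dividing cells (chr6:47530139-47595341, minus strand, mm10). Its paternal share was 63.0, 57.6 and 45.3% in the forward embryos and 50.3, 48.9, 45.4, 46.3 and 35.1% in the reverse embryos, on 154 to 587 reads per embryo. The shares of the crosses overlapped, with 55.3% ± 9.10 (SD, n = 3) for the forward cross and 45.2% ± 5.99 (SD, n = 5) for the reverse cross. The cast allele held more reads than the B6 allele in 6 of 8 embryos, with 1320 against 1113 reads in all. The parental log2 fold change was 0.03 ± 0.27 (SE), within the margin (equivalence adjusted p = 0.0175, edgeR).

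Ezh1 encodes the second H3K27 methyltransferase, better known from non-dividing cells (chr11:101191115-101226463, minus strand). Its paternal share was 56.9, 69.7 and 31.8% in the forward embryos and 97.2, 61.4, 53.8, 69.0 and 75.0% in the reverse embryos, on only 13 to 72 reads per embryo. In reverse embryo 1, 70 of 72 reads were paternal, and the exact 95% interval of this share, 90.3 to 99.7%, lay above the intervals of the other 7 embryos, whose highest bound was 90.2%. The paternal allele held more reads in 7 of 8 embryos, and forward embryo 3 was the exception. Even so, the parental log2 fold change of 0.79 ± 0.45 (SE) did not pass the test (adjusted p = 0.857, edgeR), nor was it within the margin (equivalence adjusted p = 0.447, edgeR). Without reverse embryo 1 the log2 fold change was 0.49 and the reverse mean moved from 71.3% ± 16.5 (SD, n = 5) to 64.8%. Neither a parental difference nor equivalence was called for Ezh1.

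Eed and Suz12 encode the other obligate subunits of PRC2. Eed (chr7:89954654-89980983, minus strand) had a paternal share of 50, 58.5 and 45.0% in the forward embryos and of 52.3, 58.9, 55.1, 48.4 and 50% in the reverse embryos. These shares gave 51.2% ± 6.79 (SD, n = 3) and 52.9% ± 4.18 (SD, n = 5), so that the crosses overlapped around equal reads of both parents. The SD between reverse embryos was smaller than that of most other genes, with a median of 9.06 over the 5608 genes, and 12.9% of these genes had a smaller one. The parental log2 fold change of Eed was 0.10 ± 0.23 (SE), within the margin (equivalence adjusted p = 0.0166, edgeR).

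Suz12 (chr11:79993106-80034123, plus strand) had a paternal share of 48.3, 40.0 and 35.2% in the forward embryos. In the reverse embryos it was 35.0, 58.5, 52.5, 55.9 and 46.5%. Reverse embryo 1 was lowest of the reverse embryos, with 163 paternal and 303 maternal reads, and its exact 95% interval of 30.6 to 39.5% lay below those of reverse embryos 2 and 5. The parental log2 fold change of -0.42 ± 0.42 (SE) was not within the margin (equivalence adjusted p = 0.186, edgeR). Suz12 passed the equivalence test once embryo was added as a term to the fit, which compares the alleles of the same embryo (adjusted p = 0.00515, edgeR; 0.00515 to 0.342 over the alternatives at this margin). That model called 45.3% of all tested genes equivalent and raised the count of Polycomb genes to 8 of 9, Ezh1 being left out (adjusted p = 0.510, edgeR).

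The accessory genes Jarid2 and Mtf2 had the most reads of the 10 and hence the narrowest intervals. Jarid2 (chr13:44729474-44921643, plus strand) had 44.2, 47.9 and 47.1% paternal reads in the forward embryos and 55.9, 50, 63.1, 53.7 and 54.6% in the reverse embryos. The crosses did not overlap, and their means of 46.4% ± 1.92 (SD, n = 3) and 55.5% ± 4.83 (SD, n = 5) lay near the 44.5% and 55.7% of the median gene. Its parental log2 fold change was 0.02 ± 0.36 (SE), within the margin (equivalence adjusted p = 0.0365, edgeR).

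Mtf2, a Polycomb-like protein that binds CpG-rich DNA (chr5:108065674-108109004, plus strand), had 37.5, 43.7 and 37.1% paternal reads in the forward embryos. In the reverse embryos the share was 53.9, 66.4, 62.7, 56.5 and 60.7%. The B6 allele thus held more reads in 8 of 8 embryos, with 4292 against 2795 reads in all, and the cross means of 39.4% ± 3.69 (SD, n = 3) and 60.0% ± 4.96 (SD, n = 5) lay further apart than those of the median gene. The parental log2 fold change was -0.012 ± 0.29 (SE), within the margin (equivalence adjusted p = 0.0204, edgeR).

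Rnf2 and Ring1 encode the H2A ubiquitin ligases of PRC1, and Pcgf6 marks a variant PRC1. Rnf2 (chr1:151458004-151500955, minus strand) had a paternal share of 49.5, 47.1 and 59.2% in the forward embryos and of 37.8, 42.5, 60.0, 45.7 and 76.2% in the reverse embryos, on 21 to 97 reads. The crosses overlapped, and the SD of 15.6 between reverse embryos exceeded that of 86.1% of the 5608 genes, whose median had 931 reads over the 8 embryos against 383 for Rnf2. Its parental log2 fold change was -0.0038 ± 0.34 (SE), within the margin (equivalence adjusted p = 0.0413, edgeR).

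Pcgf6 (chr19:47033617-47050906, minus strand) had 47.0, 49.5 and 38.8% paternal reads in the forward embryos and 56.6, 56.5, 46.4, 64.2 and 72.6% in the reverse embryos. Reverse embryo 3 fell among the forward embryos, and the cross means were 45.1% ± 5.62 (SD, n = 3) and 59.3% ± 9.76 (SD, n = 5). Its parental log2 fold change was 0.10 ± 0.26 (SE), within the margin (equivalence adjusted p = 0.0201, edgeR). Ring1 (chr17:34020792-34024680, minus strand) had 34 reads over all embryos, 20 maternal and 14 paternal. With 9, 2 and 4 reads in the forward embryos and 3, 3, 0, 6 and 7 reads in the reverse embryos, no allelic statement could be made about Ring1, and its 0 reads in reverse embryo 3 allow up to 3 reads by counting error.

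Kdm6b removes H3K27 methyl groups (chr11:69398508-69413675, minus strand) and had 20 to 51 reads per embryo. Its paternal share was 70.8, 48.8 and 41.5% in the forward embryos and 43.5, 58.8, 37.5, 35.0 and 47.6% in the reverse embryos, and the crosses overlapped. Its parental log2 fold change was -0.11 ± 0.40 (SE), within the margin (equivalence adjusted p = 0.0693, edgeR), a call lost under 7 alternatives, among them leaving out any 1 forward embryo or reverse embryo 2 or 7. Reads of Ezh2, Eed, Suz12, Mtf2, Rnf2 and Kdm6b can come in part from genes on the opposite strand, with which they share between 158 and 395 exonic bases, since no source used here says whether strand was used in counting.

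Strain differences were tested with the same fit, with cast over B6 as the direction. Of the 9 genes, 0 passed an adjusted p of 0.1 (edgeR), against 15.5% of all tested genes, and 1 of 9, Ezh2, had an unadjusted p under 0.05 by edgeR and by DESeq2, against 23.6% of all genes by edgeR. The strain log2 fold change of Ezh2 was 0.60 ± 0.27 (SE) toward cast (adjusted p = 0.169, edgeR), and that of Mtf2 was -0.29 ± 0.29 (SE), toward B6 (adjusted p = 0.633, edgeR). With a term for each embryo 2 of 9 genes passed, beside 25.5% of all tested genes (9.69% toward cast and 15.8% toward B6). In that model the cast allele of Ezh2 was higher by 0.63 ± 0.15 (SE) on the log2 scale (adjusted p = 0.00404, edgeR; 0.00404 to 0.628 over the alternatives), and Mtf2 had -0.27 ± 0.10 (SE), higher from B6 (adjusted p = 0.0636, edgeR; 0.0636 to 0.826 over the alternatives). Ezh2 also passed without reverse embryo 1 (log2 fold change 0.64, adjusted p = 0.0566, edgeR).

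These strain values are relative to the sum of each allele library, which takes out the overall B6 excess. With 1 library size per embryo, the median strain log2 fold change of all genes moved from -0.06 to -0.40, and the share of calls toward B6 rose from 71.3% to 87.4%. Ezh2 then kept its direction at 0.26, whereas Eed, Suz12 and Jarid2 turned from 0.30, 0.22 and 0.09 to -0.033, -0.10 and -0.25. The strain direction of these 3 genes is therefore not given.

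**Figure D2:**
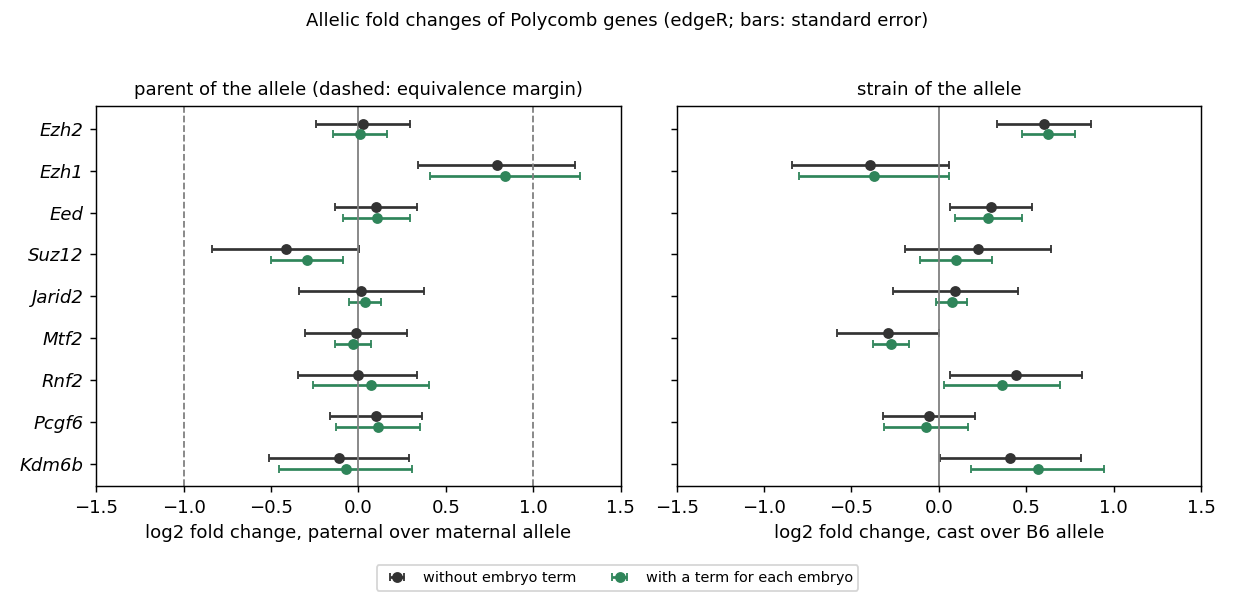
Log2 fold changes of the 9 tested Polycomb genes, paternal over maternal on the left with the equivalence margin of 1 as dashed lines and cast over B6 on the right. Points are edgeR estimates without (black) and with (green) a term for each embryo, bars are standard errors, and Ezh1 at 0.79 and Ezh2 at 0.60 lie furthest from 0 in the 2 panels without the embryo term.

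The level of each gene was compared between crosses on the sum of both alleles. Of the 9 genes, 0 passed an adjusted p of 0.1 (edgeR, reverse against forward embryos), and 0 had an unadjusted p under 0.05 by edgeR or DESeq2, while 0.0688% of 13078 genes were called and 7.33% had such an unadjusted p. The log2 fold change was 0.52 ± 0.48 (SE) for Suz12, 0.47 ± 0.44 (SE) for Jarid2 and -0.60 ± 0.41 (SE) for Rnf2, with adjusted p-values of 0.830, 0.826 and 0.755 (edgeR). Without reverse embryo 1 the values of Suz12 and Jarid2 were -0.038 and -0.0081. Those of Rnf2, Ezh2 and Mtf2 grew in size, from -0.60, -0.24 and 0.35 to -0.89, -0.52 and 0.51. So did those of Ezh1, Eed and Pcgf6, from -0.061, -0.0029 and -0.043 to -0.21, -0.17 and -0.14. That of Kdm6b shrank from -0.50 to -0.38. The effect of cross cannot be told apart from that of any collection day or batch, and in whole embryos fewer cells of a type and less RNA per cell cannot be told apart. The paper states that embryos were not matched for sex. The paternal share of X-linked reads was 2.01 to 2.43% in forward embryos, 6.09% in reverse embryo 1 and 33.9 to 41.3% in the other reverse embryos. The part of sex or X chromosome state in the cross values, or in the levels of reverse embryo 1, was not tested.

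Reverse embryo 1 stood apart from the others in several of these levels. Suz12 had 87.9, 70.7 and 99.6 RPM in the forward embryos and 281, 109, 47.5, 107 and 68.4 in the reverse embryos. Jarid2 had 768, 729 and 747 RPM in the forward embryos and 2233, 813, 503, 839.5 and 797 in the reverse embryos, in the same order. Reverse embryo 1 thus stood at 3.19 times the median of the other 7 embryos for Suz12 and 2.91 times for Jarid2, beyond their whole range in both cases. Both alleles took part, with 303 maternal and 163 paternal reads of Suz12 and 1637 and 2071 of Jarid2 in this embryo.

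Ezh2 and Eed were also highest in reverse embryo 1. Ezh2 had 266, 210.4 and 251 RPM in the forward embryos and 353, 152, 165, 203 and 148 in the reverse embryos. Eed had 102, 104 and 90.6 in the forward embryos, against 142, 79.3, 86.2, 91.1 and 92.5 in the reverse embryos. For these 4 genes, and for Rnf2, reverse embryo 1 lay apart from the other reverse embryos by Dixon's criterion for 5 samples, that is 5 of 9 genes, beside 9.08% of 13078 genes. It was the highest of all 8 embryos for 4 of 9 genes, beside 28.7% of all genes, so that many genes outside the Polycomb group also peaked in this embryo.

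None of the other genes was highest in reverse embryo 1, but it came next to highest for Ezh1 (43.4 RPM), Rnf2 (49.4) and Pcgf6 (81.9). Mtf2 had 474, 595 and 682 RPM in the forward embryos and 359, 568, 1101, 859.7 and 776 in the reverse embryos, and was lowest in reverse embryo 1. Kdm6b was also lowest there, with 13.9 RPM, but forward embryo 1 with 14.8 and reverse embryo 5 with 14.9 were close to it, and forward embryo 2 was highest with 38.0. Reverse embryo 1 was thus lowest for 2 of 9 genes, beside 28.6% of all tested genes. Rnf2 was highest in forward embryo 1 with 59.6 and between 20.1 and 49.4 in the other embryos. Pcgf6 ran from 51.0 to 85.7 RPM, with forward embryo 2 highest and forward embryo 1 lowest, and Ezh1 ran from 10.5 in reverse embryo 3 to 44.8 in reverse embryo 2.

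**Figure D3:**
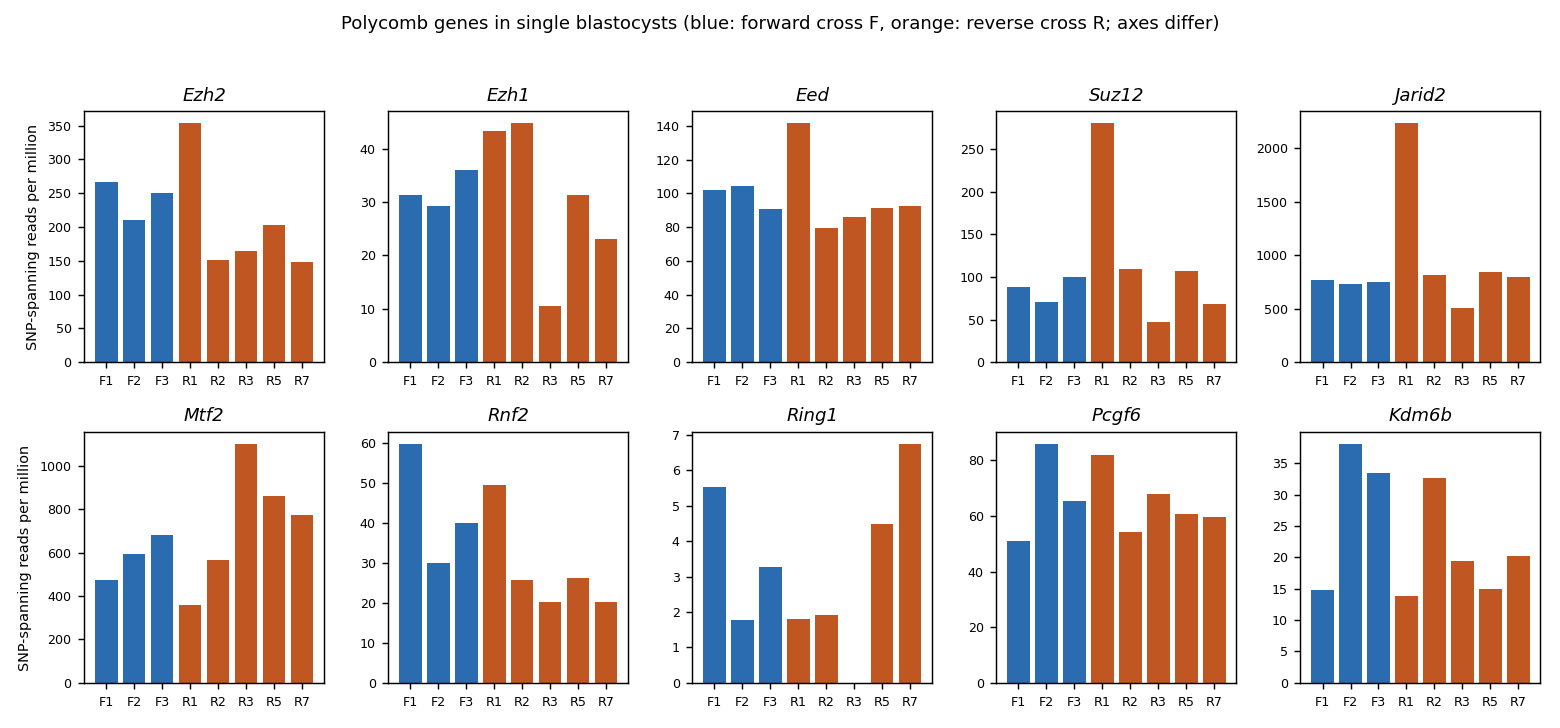
SNP-spanning reads as RPM (both alleles, scaled to TMM library sizes) of the 10 Polycomb genes in forward embryos F1 to F3 (blue) and reverse embryos R1 to R7 (orange), 1 bar per embryo and with an axis of its own for each gene. R1 is the highest bar for Ezh2, Eed, Suz12 and Jarid2 and the lowest for Mtf2 and Kdm6b.

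The sum of 8 trophectoderm genes was lowest in reverse embryo 1. In reverse embryo 1, Krt8 stood at 275 RPM against 1557 to 2454 in the other 7 embryos, Krt18 at 172 against 1126 to 2063 and Eomes at 44.6 against 55.0 to 364. Krt8, Krt18 and Eomes were picked from the 8, and the other genes of that list are not given singly. Genes with many reads, such as Krt8 and Krt18, weigh most in the sum. The summed RPM of the 8 trophectoderm genes were 843 in reverse embryo 1, those of 7 epiblast genes 791 within 577 to 1089 in all embryos, and those of 6 primitive endoderm genes 627, the highest of a range from 465. Esrrb, a pluripotency factor picked from the 7 epiblast genes, had 275 RPM against 70.1 to 169 in the others, although the sum of the 7 was within the range above. The part of these markers in the levels of Suz12, Jarid2, Ezh2, Eed and Mtf2 was not tested. Leukocyte genes were near 0 in reverse embryo 1, with 7.23 RPM over 9 genes.

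**Figure D4:**
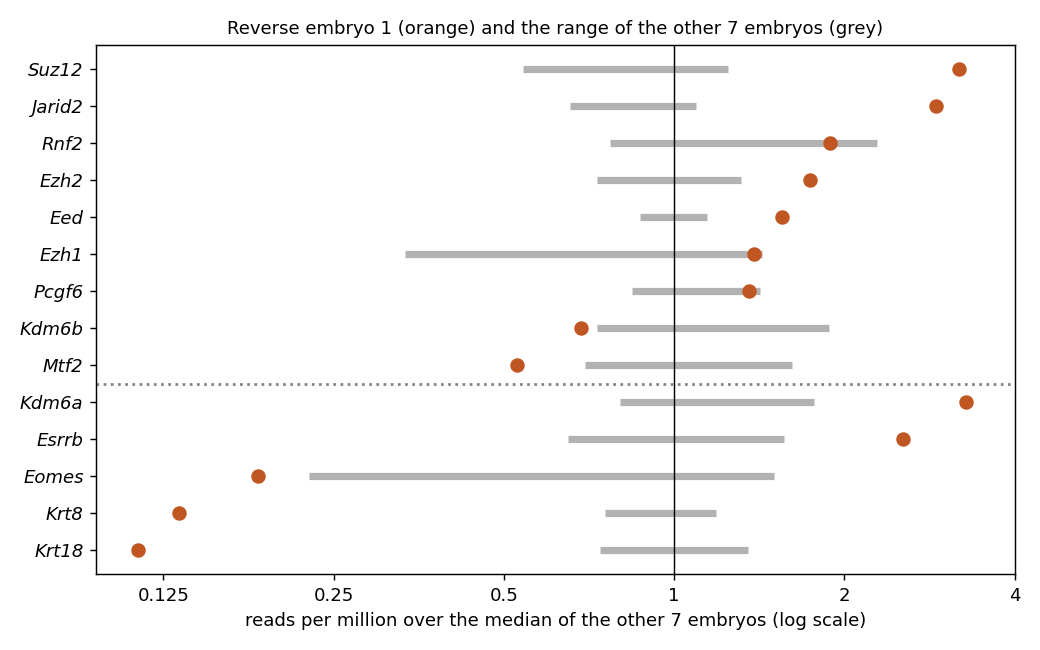
RPM in reverse embryo 1 (orange point) and the range of the other 7 embryos (grey bar), both divided by the median of the other 7 embryos, on a log scale. Above the dotted line are 9 Polycomb genes, with Suz12 at 3.19 and Mtf2 at 0.526, and below it are Kdm6a at 3.27 and 4 picked lineage markers. Esrrb was picked from 7 epiblast genes, and Eomes, Krt8 and Krt18 from 8 trophectoderm genes. The other markers of these lists are not shown.

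The 250 bases upstream of the start site are shown for Suz12 and Jarid2, which departed most upward in reverse embryo 1, and for Mtf2, which departed most downward, with every CG dinucleotide in capitals (RefSeq, GRCm38.p6, plus strand). They lie at chr11:79992856-79993105 for Suz12, chr13:44730524-44730773 for the first of 2 start sites of Jarid2 and chr5:108065424-108065673 for the first of 2 of Mtf2.
Suz12: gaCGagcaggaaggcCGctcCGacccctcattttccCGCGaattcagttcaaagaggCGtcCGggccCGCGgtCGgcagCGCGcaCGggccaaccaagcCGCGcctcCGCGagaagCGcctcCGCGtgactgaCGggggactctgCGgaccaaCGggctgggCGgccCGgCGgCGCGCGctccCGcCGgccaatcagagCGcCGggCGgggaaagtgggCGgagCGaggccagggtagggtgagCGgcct
Jarid2: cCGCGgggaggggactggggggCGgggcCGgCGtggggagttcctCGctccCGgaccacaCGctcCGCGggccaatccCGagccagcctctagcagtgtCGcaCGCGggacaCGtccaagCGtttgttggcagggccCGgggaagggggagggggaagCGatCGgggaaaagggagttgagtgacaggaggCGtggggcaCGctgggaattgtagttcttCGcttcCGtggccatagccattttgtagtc
Mtf2: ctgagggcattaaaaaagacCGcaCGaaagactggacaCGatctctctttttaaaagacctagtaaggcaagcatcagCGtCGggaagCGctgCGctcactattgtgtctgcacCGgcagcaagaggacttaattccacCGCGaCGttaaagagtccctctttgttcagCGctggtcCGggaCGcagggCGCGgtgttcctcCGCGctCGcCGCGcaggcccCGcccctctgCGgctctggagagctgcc
The Suz12 sequence holds 37 CG dinucleotides, more than 97.8% of 32851 promoters of the same length, and those of Jarid2 and Mtf2 hold 23 each, more than 86.7%. The median promoter held 6. Of the 10 genes 9 were found in the promoter table, and their first start sites held between 12 CG dinucleotides in Eed and the 37 of Suz12, so that all 9 lay above the median. The second start site of Mtf2 held 2.

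The E2F-type letters TTCCCGC, searched on both strands, were found in these windows only for Suz12, starting 218 bases upstream, and in 3.82% of all promoters. The related letters TTGGCGC were found for none of the 9 genes and in 1.97% of all promoters. The letters GGGCGG, part of the GC box of Sp1, were found for Suz12, Jarid2, Mtf2, Rnf2, Ring1 and Pcgf6 and in 32.7% of all promoters. Suz12 and Mtf2, opposite in reverse embryo 1, both held the GC box letters, and any part of these letters in the levels was not tested.

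Other Polycomb genes were taken as 4 lists, of which 52 genes were in the counts, 36 of them tested. The parent test called 2 of 36, both toward the paternal allele, the strain test called 2 and the cross test 1 of 37 (edgeR, adjusted p of 0.1), and 16 of 36 were equivalent between parents, beside 35.6% of all genes. In each direction the background was 1.11% paternal and 0.318% maternal, 4.45% cast and 11.0% B6. Once embryo was a term, the strain test called 9 of 36, with Usp7, Cbx7, Phc3, L3mbtl2 and E130012A19Rik (Epop) toward cast and Asxl3, Sfmbt2, Mga and Asxl2 toward B6, beside 25.5% of all genes. The strain call of Sfmbt2 rests on a nearly silent maternal allele, with 16 maternal of 3537 reads. Its adjusted p was 0.0937 with the embryo term and 0.799 without it (edgeR). With the embryo term the parent test called 1 paternally and 2 maternally higher genes, and 21 of 36 were equivalent, beside 45.3% of all genes. The median parental log2 fold change of these 36 genes was -0.07. Among the 6 tested PRC2 genes, 4 were equivalent, among them Rbbp4 and Aebp2, whose parental log2 fold changes were 0.05 ± 0.28 (SE) and -0.07 ± 0.26 (SE).

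Sfmbt2, a Polycomb gene related to the PhoRC subunit (chr2:10370510-10595253, plus strand) and known as imprinted, was read from the paternal allele. Its paternal reads were 682, 269 and 234 in the forward embryos and 1204, 397, 165, 349 and 221 in the reverse embryos, and its maternal reads were 2, 7 and 3 and 4, 0, 0, 0 and 0. The parental log2 fold change was 7.49 ± 0.58 (SE) and the paternal allele was higher in 8 of 8 embryos. Sfmbt2 was one of the 9 paternally expressed genes by which maternal reads were measured above, so it gives the same 8 embryos their scale for a silent allele, 16 maternal of 3537 reads, beside which Ezh2 had 1200 maternal of 2433.

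Asxl3, a gene of the PR-DUB deubiquitinase family, was read almost only from the paternal B6 allele of reverse embryos. Its reads there were 175, 57, 199, 207 and 193, with 1 maternal read in reverse embryo 5, while the forward embryos had 3, 0 and 0 reads, all maternal and B6. The parent, strain and cross tests all called Asxl3 (edgeR, adjusted p of 8.90e-05, 7.02e-06 and 0.00342), and all 3 calls rest on the same 5 libraries. The parent call was lost once embryo was a term (adjusted p = 1.0, edgeR; 1.89e-15 to 1.0 over the alternatives). Since the forward embryos gave almost no reads, its fitted fold changes depend on the prior count and are not given.

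Usp7, a deubiquitinase bound to PRC1, had more cast than B6 reads in 6 of 8 embryos, with a strain log2 fold change of 0.74 ± 0.25 (SE; adjusted p = 0.0572, edgeR; 0.00468 to 0.351 over the alternatives). It lost the call without forward embryo 1, without forward embryo 3 and without reverse embryo 5, with log2 fold changes of 0.66, 0.65 and 0.73 and adjusted p-values of 0.254, 0.262 and 0.114 (edgeR). It also lost it with no minimum count (0.73), without both embryos 1 (0.61) and with 1 library size per embryo, where its log2 fold change was 0.40.

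A pair of PRC1 genes passed the parent test only with a term for each embryo, and they were picked after these values were seen. Cbx7, a reader of H3K27 methylation, had more maternal reads in 8 of 8 embryos, 870 against 517 in all. Its maternal reads were 142, 106 and 107 in the forward embryos and 100, 131, 72, 79 and 133 in the reverse embryos, against 130, 60 and 106 and 61, 53, 12, 32 and 63 paternal reads. The paternal share of Cbx7 was 44.6% ± 7.36 (SD, n = 3) in the forward cross, near the 44.5% of the median gene. In the reverse cross it was 28.4% ± 8.71 (SD, n = 5), below the 55.7% of the median gene. Its parental log2 fold change was -0.77 ± 0.32 (SE; adjusted p = 0.498, edgeR) and -0.83 ± 0.19 in the fit that includes embryo (SE; adjusted p = 0.0147, edgeR; 0.0147 to 1.0 over the alternatives), where 3.1% of all tested genes were called. In that model its strain log2 fold change was 0.84 ± 0.19 (SE), toward cast (adjusted p = 0.00238, edgeR; 0.00238 to 0.417 over the alternatives). Auts2 had -0.28 ± 0.08 (SE) in that model (adjusted p = 0.0887, edgeR; 0.0887 to 1.0 over the alternatives) but more paternal reads in 5 of 8 embryos, the reverse ones.

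X-linked Polycomb genes were left out of the tests, since the X chromosome content of the embryos was uneven. The paternal share of all X-linked reads was 2.01 to 2.43% in forward embryos, 6.09% in reverse embryo 1 and 33.9 to 41.3% in the other reverse embryos. Kdm6a, the second H3K27 demethylase, had 39.3, 52.2 and 46.5 RPM in the forward embryos and 161, 50.5, 42.7, 86.6 and 49.1 in the reverse embryos. Its 267 reads in reverse embryo 1 made it, like Suz12 and Jarid2, highest in that embryo. Ezhip, an inhibitor of PRC2 listed under its older symbol AU022751, had 247 reads. Of these, 246 came from the maternal cast allele of reverse embryos and 1 from the maternal B6 allele. They were 69, 38, 19, 54 and 66 in the reverse embryos against 0, 0 and 1 in the forward embryos. The B6 allele was thus nearly unread from both parents, with 0 paternal reads in reverse embryos. The paternal cast allele could not be judged, since forward embryos held few paternal X-linked reads, and the part of parent was not tested. The PRC2 subunit Rbbp7 had 154 reads, the PRC1 genes Bcor and Bcorl1 165 and 183, Hcfc1 and Ogt of PR-DUB 629 and 441, and Scml2 had 2.

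Genes of the H3K4 and H3K36 methyltransferases, which also modify the tail of histone H3, were taken for comparison. Of 15 tested, 10 were equivalent between parents (edgeR), beside 7 of 9 Polycomb genes and 35.6% of all genes. Among all genes with at least 10 reads in every embryo the equivalent share was 78.1%. Once embryo was a term, 11 of the 15 were equivalent, beside 45.3% of all genes. In that model 1 of the 15, Kmt2c, picked after its value was seen, was called toward B6, beside 15.8% of all genes. Their median log2 level in reverse embryo 1 against the median of the other 7 embryos was -0.07, against 0.63 for the 9 Polycomb genes, 0.68 for 19 other PRC1 genes and 0.00 for all tested genes. The difference between these medians was not tested. Of the 15 methyltransferase genes, 6 (40.0%) were highest in reverse embryo 1, beside 4 of 9 Polycomb genes (44.4%) and 28.7% of all tested genes. Another 4 of the 15 were lowest there, beside 2 of 9 Polycomb genes. Among the 6, Kmt2c, Setd2 and Nsd1 had 547, 376 and 364 RPM in reverse embryo 1. In the other 7 embryos these genes had 178 to 222, 43.5 to 113 and 109 to 165 RPM.

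The autosomal genes whose paternal shares were closest to those of the 8 Polycomb genes with at least 20 reads in every embryo were named by the root mean square difference over the 8 embryos. They were Mettl15 for Ezh2 at 3.56 percentage points, Usp37 for Eed at 3.36, Tmem59 for Suz12 at 3.89, Ap2a2 for Jarid2 at 2.86, Hsp90b1 for Mtf2 at 2.78, Nipbl for Rnf2 at 5.70, Senp6 for Pcgf6 at 4.0 and Brpf3 for Kdm6b at 5.01. None of the 8 Polycomb genes was the closest gene of another, among 5607 genes compared.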

How the data were processed

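Allele-resolved RNA was read in 3 forward and 5 reverse E3.5 blastocysts. The authors deposited raw counts, for each gene, of reads over SNPs on either strain's allele, taken from an intermediate step of Allelome.Pro after alignment to mm10 with STAR (2.5.2b in the submitters' processing notes) and removal of multi-mapping reads, and they removed further samples beforehand. Annotation came from GENCODE vM21 and RefSeq (GRCm38.p6), and 1110 of 22810 genes were not matched. Rows without a matched position held 0.815% of the reads.

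The maternal and paternal reads of each embryo formed 16 allele libraries. edgeR 4.0.16 (R 4.3.3) was run with TMM factors, strain and parent as terms, the quasi-likelihood test and Benjamini-Hochberg adjustment on autosomal genes with at least 10 reads in at least 1 library. Genes were called at an adjusted p of at most 0.1. Equivalence was tested against a log2 margin of 1. Crosses were compared on embryo sums. Shares needed at least 5 reads and carry exact 95% binomial intervals. A median log2 level used a pseudocount of 0.5 on reads scaled to library size (RPM). The parent, equivalence and cross tests were checked on simulated counts.

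Maternal and paternal alleles come paired from the same animal, and the deviations of maternal and paternal libraries correlated at 0.0843 to 0.555. A fit that includes embryo as a term was therefore run, and is given where it changed a call. Alternatives were DESeq2 1.42.0, RLE factors, other minimum counts, legacy = FALSE, 1 library size per embryo, a 1.5-fold margin and leaving out each embryo. Leaving out forward embryo 1 and reverse embryo 1 together was added after seeing the data. All members, other Polycomb genes passing a test, X-linked ones and the closest gene by paternal share were named. The members and gene lists were chosen with earlier results of these data known.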

Additional observations from a re-analysis of the deposited data

Results flagged for a closer look

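Reverse embryo 1 lay further from the other 4 reverse embryos than Dixon's 95% value allows for 5 Polycomb genes. Its RPM were 353 for Ezh2, 142 for Eed, 281 for Suz12, 2230 for Jarid2 (2233 before rounding) and 49.4 for Rnf2, all higher than in the other reverse embryos. Chance would flag about 1 in 20 genes, and 16.1% of 13078 genes had some reverse embryo apart in this way, 9.08% with reverse embryo 1 high. No paternal share of a Polycomb gene was apart by this criterion.

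Apart from Scml2, with 2 reads, the X-linked Polycomb genes lay outside the tests and had reads above the 3 that a count of 0 allows. Over the 8 embryos these were 154 for Rbbp7, 247 for AU022751 (Ezhip), 165 for Bcor, 183 for Bcorl1, 629 for Hcfc1, 441 for Ogt and 746 for Kdm6a. Paternal reads of Kdm6a were 2 in forward and 119 in reverse embryos, and those of Ogt were 1 and 73. AU022751 had 0 paternal reads in both crosses, and 246 of its reads were cast.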

How the results depend on the processing

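None of the 9 tested genes among the 10 described passed the parent or cross test under any alternative, and Ezh2 and Mtf2 passed the strain test as given above. The count of genes called by the parent test, 179, was 406 with no minimum count, 75 with at least 10 reads in every embryo, 306 with legacy = FALSE and 389 with a term for each embryo, which uses the pairing of alleles. The strain test called 1945 genes, 1068 with at least 10 reads in every embryo and 3207 with the embryo term, when 2 of the 9 passed in place of 0. With a 1.5-fold margin 0 genes, and so 0 of the 9, were equivalent. The cross test called 9 genes, 143 with no minimum, 0 with at least 10 reads in every embryo, 28 with legacy = FALSE, 136 with DESeq2 and 37 without both embryos 1.

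Forward and reverse embryos of the same number share only that number. With it as a block the cross test called 21 genes and 0 of the 9, and 2 of 3 forward embryos correlated best with their namesake, at 0.219 and 0.199.

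Leaving out 1 embryo gave 1206 (without forward embryo 1) to 2453 strain calls, 0 to 1 of the 9 among them, 1615 (without forward embryo 3) to 5659 equivalent genes, 4 to 8 of the 9 among them, and 3 (without forward embryo 1) to 160 (without reverse embryo 1) cross calls, with 53 without reverse embryo 3.

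No reversed value had passed its test, but the strain value of Eed and the cross values of Suz12 and Jarid2 had stood at 0.30, 0.52 and 0.47. Parental log2 fold changes became 0.008 for Mtf2 and 0.0085 for Rnf2 with RLE, 0.0083 and 0.007 with DESeq2, 0.072 for Rnf2 with the embryo term, and -0.15, 0.035 and 0.23 for Ezh2, Mtf2 and Rnf2 without both embryos 1. Over single left-out embryos they ran from -0.11 to 0.19 for Ezh2, -0.0008 to 0.041 for Jarid2, -0.068 to 0.031 for Mtf2, -0.13 to 0.17 for Rnf2 and -0.27 to 0.043 for Kdm6b. Strain values with 1 library size per embryo are given above (-0.033, -0.10 and -0.25 for Eed, Suz12 and Jarid2), Suz12 had -0.18 without both embryos 1, and single left-out embryos gave -0.064 to 0.33 for Suz12 and -0.14 to 0.037 for Pcgf6. Cross values became 0.020 for Eed with RLE, 0.030 with at least 10 reads in every embryo, 0.021 with DESeq2 and 0.013 with the number block, 0.037 for Pcgf6 with that block, and -0.043 and -0.008 for Suz12 and Jarid2 without both embryos 1. Single left-out embryos gave -0.17 to 0.064 for Eed, -0.23 to 0.17 for Pcgf6, -0.23 to 0.15 for Ezh1, -0.038 to 0.71 for Suz12 and -0.0081 to 0.64 for Jarid2.

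Shares of Ezh1, Rnf2 and Kdm6b rest on 13 to 97 reads per embryo, and Ring1 had too few reads to be tested.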
